A study of Mus musculus with 11 samples.

Results

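Zic1, Zic2, Zic4, Zic5, Pax3 and Pax7, 6 transcription factor genes of the dorsal neural tube, were followed in the brains of 11 mouse embryos at embryonic day 9.5. They were taken by symbol from the 27179 genes counted in each library, and all 6 passed the filter on low counts that left 14542 genes for testing. The remaining Pax genes are given beside them. Affected females were p53-/- Bim+/- (n = 4), control males were p53-/- Bim+/- (n = 4) and control females were p53+/+ Bim+/- (n = 3). Every embryo was therefore heterozygous for Bim, the gene Bcl2l11, which encodes a protein that promotes cell death, and no embryo with both Bim copies intact was analysed. All embryos were C57BL/6, and each library came from the brain of 1 embryo, cut behind the otic vesicle. The labels do not say how the affected females were affected. Affected females differ from control females in p53 as well as in being affected, and from control males in sex as well as in being affected, so within either comparison the 2 differences cannot be told apart.

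Zic proteins are zinc finger transcription factors related to the Gli factors of Hedgehog signalling. They are made in dorsal neural tube, neural crest precursors and dorsal mesoderm, and they favour progenitor growth over neuronal differentiation. In mouse, loss or reduction of Zic2 or Zic5 can leave the neural tube open, and in human ZIC2 mutations cause holoprosencephaly. Pax3 and Pax7 are paired-domain factors of the dorsal neural tube and neural crest. Mouse embryos without Pax3 (the Splotch mutants) fail to close the neural tube, and in that mutant the removal of p53 is known to restore closure.

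Library totals ran from 8211942 to 11218682 counts. Gene counts of Trp53 itself overlapped between all groups, with 107 to 139 CPM in affected females, 112 to 132 CPM among control males and 105 to 125 CPM among control females. CPM values are counts divided by the TMM-scaled total of the library. Ccng1, a p53 target, separated the genotypes, with 21.8 to 24.5 CPM in affected females and 27.5 to 33.5 CPM in control males, against 74.7 to 93.8 CPM in control females. Xist, the RNA of the inactive X chromosome, was at 1435 to 2167 CPM in affected females and 8.72 to 13.2 CPM in control males, against 4391 to 5959 CPM in control females. The affected females thus lay between the males and the other females on this sex marker and overlapped neither. Y-linked Ddx3y was at 83.4 to 115 CPM in control males and at most 0.212 CPM in any female. Posterior Hox genes, which mark spinal cord, summed to at most 0.623 CPM in a library. Genes of primitive red blood cells summed to 565 CPM in control female 1, far from the 4402 and 4195 CPM of control females 2 and 3. Across 14542 genes, the quasi-likelihood test of edgeR, with Benjamini-Hochberg adjustment, called 28.0% between affected and control females at an adjusted p under 0.05, 13.0% higher and 15.0% lower. Between affected females and control males 20.2% were called, 9.51% higher and 10.7% lower. Between control males and control females 0.144% were called. Adjusted p-values come from that test unless another is named, and they set a difference against the spread between these embryos.

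These Zic genes lie in pairs that point away from each other. In the build GRCm38, whose coordinates are those of mm10, Zic1 (GeneID 22771) spans chr9:91358058-91365768 on the minus strand and Zic4 (GeneID 22774) spans chr9:91365631-91389351 on the plus strand. Their RefSeq spans share 138 bases, and their GENCODE exons share 60 bases, which is 1.05% of Zic1 and 0.581% of Zic4. Reads in that overlap cannot be assigned without the strand setting of the counting, which is not given. Zic5 (GeneID 65100, chr14:122459160-122465658, minus strand) and Zic2 (GeneID 22772, chr14:122475384-122480328, plus strand) lie 9725 bases apart and share no exonic base. Pax3 (GeneID 18505) spans chr1:78101267-78197136 and Pax7 (GeneID 18509) spans chr4:139737059-139833530, both on the minus strand.

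Upstream sequence was available for 4 of the 6 genes in the RefSeq promoter table (GRCm38.p6), Zic1, Zic4, Zic5 and Pax7. The stretches outside annotated exons in the 250 bases before the start sites of Zic1 and Zic5 are shown because they lie on the side of the neighbouring genes Zic4 and Zic2; the Zic1 stretch falls within the RefSeq span of Zic4. The Zic1 stretch is chr9:91365811-91366018 and the Zic5 stretch chr14:122465678-122465908, both read 5′ to 3′ on the minus strand. Capitals mark CCAAT boxes and E-boxes (CANNTG).
Zic1: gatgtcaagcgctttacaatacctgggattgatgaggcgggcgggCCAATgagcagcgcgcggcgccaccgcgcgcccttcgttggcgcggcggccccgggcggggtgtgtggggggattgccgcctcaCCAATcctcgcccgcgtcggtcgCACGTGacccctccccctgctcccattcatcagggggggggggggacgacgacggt
Zic5: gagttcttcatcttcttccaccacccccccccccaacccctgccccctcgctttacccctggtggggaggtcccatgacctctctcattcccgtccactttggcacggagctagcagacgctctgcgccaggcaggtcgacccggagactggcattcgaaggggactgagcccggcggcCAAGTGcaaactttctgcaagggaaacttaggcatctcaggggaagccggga
The Zic1 window held 2 CCAAT boxes and 1 E-box, and the Zic5 window held no CCAAT box and 1 E-box. Over 32851 promoters of the same length, searched on both strands, 33.8% held a CCAAT box and 66.2% an E-box. The Zic4 window belongs to a start site inside the Zic4 span, 3204 bases from that of Zic1, so it is not the sequence beside Zic1. It lies wholly in annotated exons, is not printed and held 1 E-box and no CCAAT box. A Zic core motif (CCTGCTG) was found once in the Pax7 window and in none of the 3 Zic windows, against 8.44% of all promoters. No match in these 4 windows was found for the Gli and Zic site GACCACCCA, the homeodomain site TAATTA, the Tcf site CTTTGAT, the TATA box TATAAA or the p53 half-site, which occurred in 0.225%, 4.84%, 3.21%, 12.4% and 7.13% of all promoters in that order. The Zic1 window was 66.0% G or C and the Zic4 window 44.4%, against a median of 52.4% over all promoters.

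Zic4 was lower in affected females than in both control groups. Together with its neighbour Zic1 it is needed for cerebellar growth, and in human the loss of 1 copy of both is linked to Dandy-Walker malformation. Zic4 was at 8.47, 6.27, 5.69 and 9.78 CPM in affected females. It was at 18.6, 33.9, 14.3 and 13.0 CPM in control males and at 11.5, 23.4 and 24.4 CPM in control females. Every affected female lay below every control embryo, and the closest values were 9.78 CPM in affected female 4 and 11.5 CPM in control female 1. The mean was 7.55 ± 1.91 CPM in affected females, 20.0 ± 9.61 CPM among control males and 19.8 ± 7.20 CPM among control females (SD, n = 4, 4 and 3). The level in affected females was 2.63-fold lower than in control females (log2 fold change -1.40, SE 0.32, adjusted p = 0.00833) and 2.63-fold lower than in control males (log2 fold change -1.40, SE 0.30, adjusted p = 0.0113). The raw counts behind these values were 61 to 101 in affected females, 143 to 328 in control males and 92 to 263 in control females. Without affected female 3, the adjusted p against control males was 0.0518. In control males against control females the log2 fold change of Zic4 was -0.00 (SE 0.30, adjusted p = 0.999). Fewer cells that make a transcript and less of that transcript per cell cannot be told apart in RNA from whole tissue, here or in any result below.

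Zic1 had the same direction with a smaller difference. It was at 66.4, 65.2, 63.5 and 75.4 CPM in affected females, at 80.8, 118.9, 80.1 and 84.0 CPM in control males and at 60.4, 96.0 and 93.4 CPM in control females. Affected females lay below all control males, but control female 1 had the lowest Zic1 of the 11 embryos. Against control females the log2 fold change was -0.30 (SE 0.16, adjusted p = 0.153), and against control males it was -0.43 (SE 0.15, adjusted p = 0.0509), so neither was called. Zic1 against control males was close to the threshold: DESeq2 gave an adjusted p of 0.0378, and edgeR gave 0.0186 without control female 1 and 0.0305 without control male 4. Against control females it was called without control female 1, with a log2 fold change of -0.48 and an adjusted p of 0.0184. The number of Zic4 counts per 100 Zic1 counts was 12.8, 9.61, 8.96 and 13.0 in affected females, 23.1, 28.5, 17.9 and 15.5 in control males and 19.0, 24.4 and 26.1 in control females. The ratio in every affected female lay below that of every control embryo, and the difference in ratio was not tested.

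**Figure D1:**
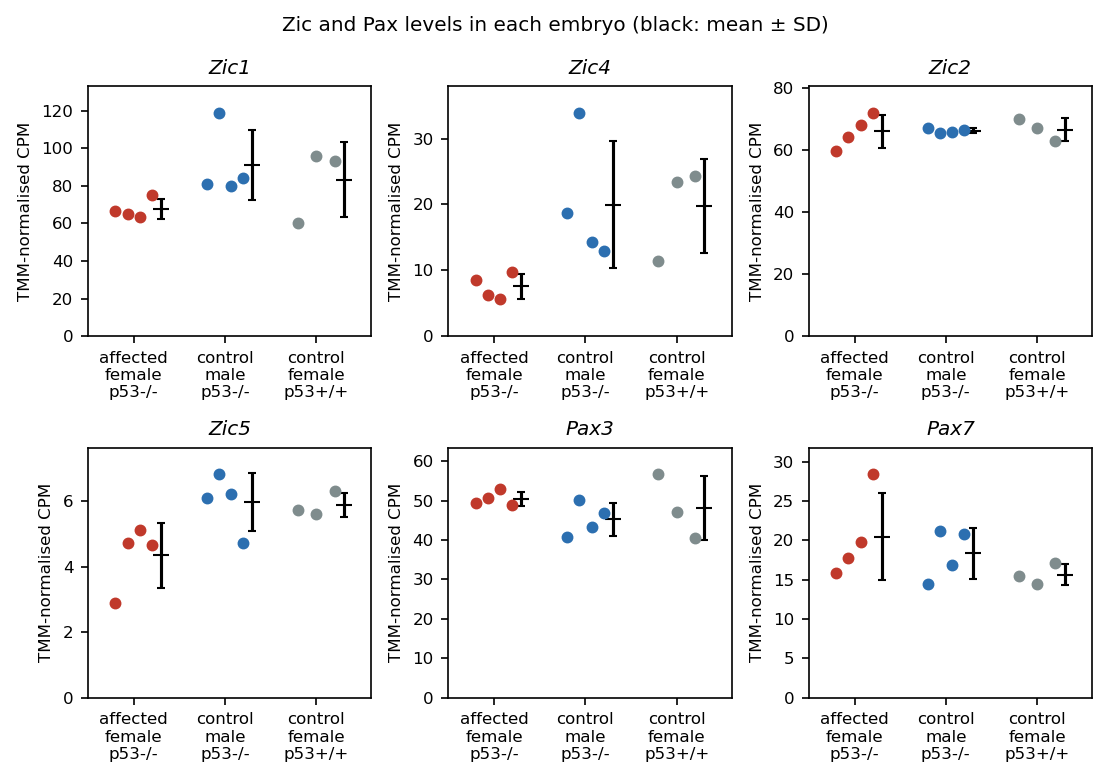
TMM-normalised CPM (vertical axes, linear and starting at 0) of Zic1, Zic4, Zic2, Zic5, Pax3 and Pax7 in each of 4 affected females (red), 4 control males (blue) and 3 control females (grey). Each point is 1 embryo and black bars are mean ± SD; Zic4 in affected females (5.69 to 9.78 CPM) lies below both control groups (11.5 to 33.9 CPM), and Zic2 lies between 59.7 and 72.0 CPM in all embryos.

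Zic2, the Zic gene most often tied to forebrain and neural tube closure defects, had the smallest differences of the 6 genes in both comparisons of affected females. It was at 59.7, 64.2, 68.1 and 72.0 CPM in affected females, at 67.1, 65.5, 65.7 and 66.4 CPM in control males and at 69.9, 67.0 and 62.8 CPM in control females. All 3 groups overlapped. The log2 fold change was -0.01 (SE 0.08, adjusted p = 0.935) against control females and -0.00 (SE 0.08, adjusted p = 0.976) against control males, and these SEs make Zic2 the most precisely measured of the 6 genes.

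Zic5, which is needed for neural tube closure and neural crest in mouse, was the least abundant. Its 29 to 68 raw counts per library limit the precision of its values. It was at 2.89, 4.73, 5.13 and 4.65 CPM in affected females, at 6.11, 6.82, 6.21 and 4.73 CPM in control males and at 5.73, 5.62 and 6.30 CPM in control females. Affected females lay below all control females but overlapped control males. The log2 fold change was -0.44 (SE 0.21, adjusted p = 0.119) against control females and -0.45 (SE 0.19, adjusted p = 0.0971) against control males, and neither was called. Zic5 counts per 100 Zic2 counts were 6.55 ± 1.23 in affected females, 9.02 ± 1.39 in control males and 8.88 ± 1.02 in control females (SD, n = 4, 4 and 3).

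In length-corrected units (RPKM, that is CPM divided by gene length), Zic4 made up 3.99 ± 0.876% of the summed level of Zic1, Zic2, Zic4 and Zic5 in affected females, 8.32 ± 2.70% in control males and 8.66 ± 2.34% in control females. Zic2 made up 48.3 ± 1.70% of that sum in affected females, 39.8 ± 5.11% in control males and 41.7 ± 7.51% in control females, with 50.3% in control female 1. The sum averaged 46.1 RPKM in affected females, 56.8 RPKM in control males and 54.6 RPKM in control females. Zic2 itself averaged 22.3, 22.3 and 22.4 RPKM in that order, so its larger share in affected females reflects a smaller sum and not more Zic2.

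Pax3 and Pax7 were not called by edgeR in any comparison. Limma voom called Pax7 higher against control females (adjusted p = 0.0494) and Pax3 higher against control males (adjusted p = 0.0208). Pax3 was at 49.4, 50.6, 52.9 and 48.8 CPM in affected females, at 40.7, 50.1, 43.3 and 46.9 CPM in control males and at 56.7, 47.2 and 40.5 CPM in control females. The affected females lay within the range of the control females, and their log2 fold change was 0.07 (SE 0.11, adjusted p = 0.64) against control females and 0.16 (SE 0.10, adjusted p = 0.268) against control males. Pax7 acts in dorsal midbrain and in neural crest, where it can partly stand in for Pax3. It was at 15.9, 17.8, 19.8 and 28.4 CPM in affected females, at 14.4, 21.2, 16.9 and 20.8 CPM in control males and at 15.5, 14.4 and 17.1 CPM in control females. Affected female 4 had the highest Pax7 of all embryos, and the groups overlapped. The log2 fold change of Pax7 was 0.39 (SE 0.19, adjusted p = 0.131) against control females and 0.16 (SE 0.17, adjusted p = 0.513) against control males.

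The order of the length-corrected levels was nearly the same in the 3 groups. In affected females Zic2 averaged 22.3 ± 1.77 RPKM and Zic1 20.2 ± 1.58 RPKM, which do not differ beyond their spread. Pax3 followed at 13.0 ± 0.475 RPKM and Pax7 at 4.78 ± 1.29 RPKM, and the lowest were Zic4 at 1.85 ± 0.468 RPKM and Zic5 at 1.83 ± 0.417 RPKM, again within their spread. In control males the means were 27.1 ± 5.59 RPKM for Zic1, 22.3 ± 0.249 RPKM for Zic2, 11.7 ± 1.07 RPKM for Pax3, 4.88 ± 2.35 RPKM for Zic4, 4.28 ± 0.765 RPKM for Pax7 and 2.51 ± 0.372 RPKM for Zic5. In control females they were 24.9 ± 5.92 RPKM for Zic1, 22.4 ± 1.21 RPKM for Zic2, 12.4 ± 2.10 RPKM for Pax3, 4.83 ± 1.76 RPKM for Zic4, 3.66 ± 0.311 RPKM for Pax7 and 2.47 ± 0.154 RPKM for Zic5. Zic4 thus stood beside Pax7 in both control groups and beside Zic5 in affected females.

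**Figure D2:**
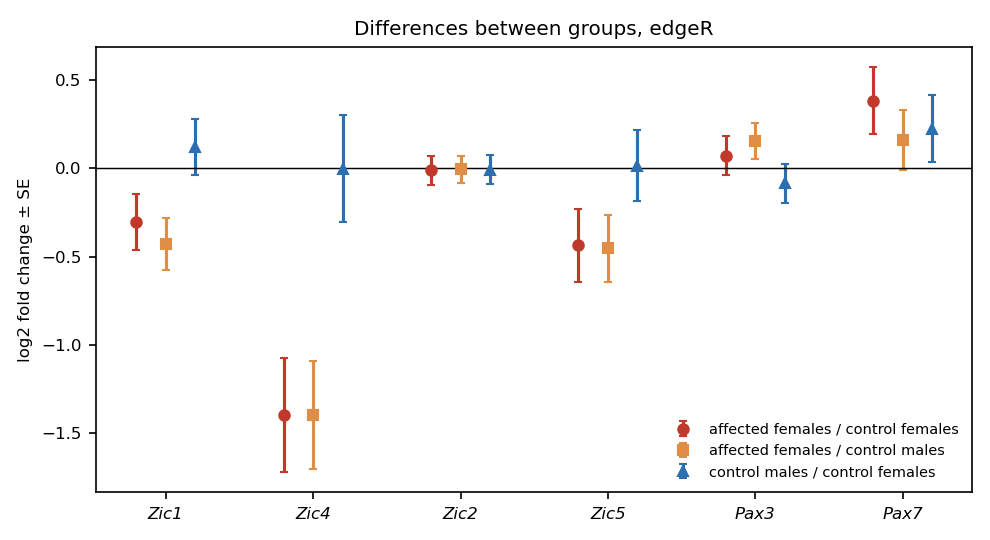
Log2 fold changes ± SE (vertical axis) from edgeR for Zic1, Zic4, Zic2, Zic5, Pax3 and Pax7, with affected females over control females (red circles), affected females over control males (orange squares) and control males over control females (blue triangles). Zic4 is at -1.40 in both comparisons of affected females and at -0.00 between the control groups; every other point lies between -0.45 and 0.39.

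Of the 6 genes, 1 was called lower and none higher in affected females against control females, where 28.0% of all tested genes were called, and likewise 1 lower and none higher against control males, where 20.2% were. At an unadjusted p under 0.05 edgeR had 1 lower and none higher against control females and 3 lower and none higher against control males; DESeq2 called 1 lower and 2 lower, and limma voom called 3 lower and 1 higher in each. The count against control females was 2 without control female 1. Against control males, leaving out affected female 3 gave 0, leaving out control female 1 gave 2 and leaving out control male 4 gave 3. Groups did not overlap for 2 of the 6 against control females, Zic4 and Zic5, where 40.2% of all tested genes did not overlap, and for 2 of the 6 against control males, Zic1 and Zic4, where 19.5% did not. The median log2 fold change of the 6 was -0.16 against control females and -0.22 against control males, beside -0.00488 and -0.0179 over all genes tested. In control males against control females edgeR and DESeq2 called none of the 6, also at an unadjusted p under 0.05, while limma voom called Zic4 lower; 0.144% of all tested genes were called there by edgeR. None of the 6 had control groups that did not overlap, beside 5.54% of all tested genes. Both comparisons of affected females share those 4 embryos, so they are not independent of each other.

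Early neuron genes were also lower in affected females. This list holds 20 genes of newborn neurons and neuronal commitment, among them Nhlh1, Dcx, Elavl3 and Isl1, and 18 of them passed the filter. No listed gene was at 0 in all libraries. In affected females 13 of 18 were lower and none higher, against control females and again against control males. Among all tested genes, 15.0% were lower against control females and 10.7% against control males. The median log2 fold changes of the list were -0.91 and -0.94. None of the list was higher at an unadjusted p under 0.05, by DESeq2 or by limma voom. Counts of lower genes were 8 to 15 against control females (8 without control female 2) and 3 to 15 against control males (3 without affected female 3 and 8 without control male 2) when 1 library was left out. Nhlh1, a neuronal bHLH factor, averaged 2.51 ± 0.632 CPM in affected females, 10.97 ± 3.53 CPM among control males and 11.1 ± 5.39 CPM among control females. The summed level of the list was 217, 192, 177 and 238 CPM in affected females. It was 328, 496, 314 and 318 CPM among control males and 238, 435 and 477 CPM among control females. Control male 2 had the highest summed level and also the highest Zic1 and Zic4. Control female 1 had the lowest summed level of the control embryos and also their lowest Zic1 and Zic4. Zic2 showed no such order, with 65.5 CPM in control male 2 and 69.9 CPM in control female 1. Whether the number of young neurons had a part in the Zic4 difference was not tested.

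**Figure D3:**
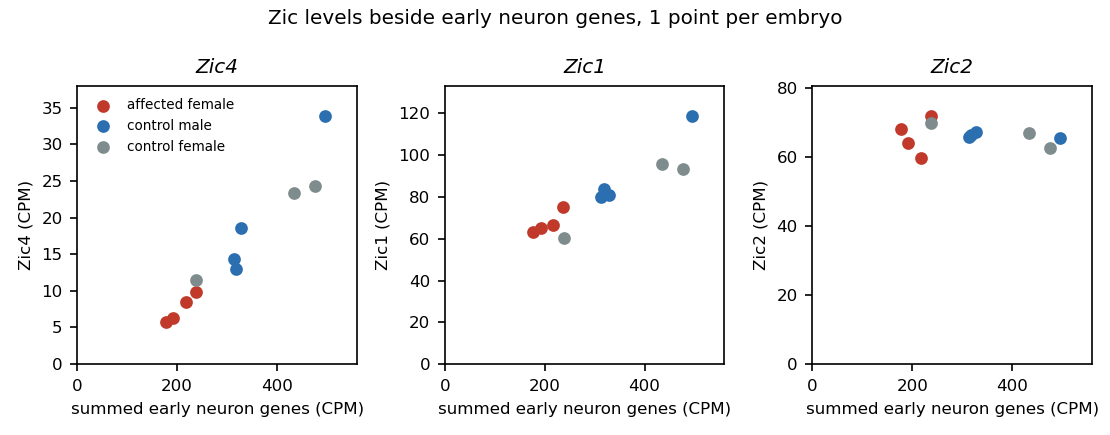
CPM of Zic4, Zic1 and Zic2 (vertical axes, starting at 0) against the summed CPM of the early neuron list (horizontal axes) in 4 affected females (red), 4 control males (blue) and 3 control females (grey), 1 point per embryo. The affected females lie at 177 to 238 CPM of early neuron genes with 5.69 to 9.78 CPM of Zic4, and control male 2 lies at 496 CPM with 33.9 CPM of Zic4; Zic2 stays between 59.7 and 72.0 CPM.

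Within groups, Zic1 and Zic4 moved together. Over 11 embryos, with each group centred on its own mean of log2 CPM, Pearson's r was 0.92 (two-sided exact permutation within groups, p = 0.00723, adjusted over 3 gene pairs 0.0217) and Spearman's rho was 0.89 (exact permutation p = 0.011, adjusted 0.033). Without control male 2 and control female 1, the 2 embryos farthest from the median in Zic1, r was 0.63 (exact permutation p = 0.167). Taking out the extremes of Zic1 narrows its range and leaves fewer embryos, so how far the relation rests on them cannot be told. With any 1 library left out, r was 0.86 to 0.95 (exact permutation p = 0.00231 to 0.0289). For Zic2 and Zic5 r was 0.48 (exact permutation p = 0.395, adjusted 0.534) and rho 0.15 (exact permutation p = 0.812, adjusted 0.812), and r was -0.20 (exact permutation p = 0.434) without affected females 1 and 4. For Pax3 and Pax7 r was 0.16 (exact permutation p = 0.534, adjusted 0.534) and rho 0.24 (exact permutation p = 0.461, adjusted 0.691), and r was 0.19 (exact permutation p = 0.472) without control male 1 and control female 3. Neither of these 2 pairs passed the test. No other gene pair was tested in this way, so the relation of Zic1 and Zic4 is not shown to be particular to neighbouring genes.

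The genes most like each of the 6 were sought by Pearson's r of log2 CPM over the 11 libraries, among 11504 genes whose log2 CPM averaged 2 or more. The libraries share group differences, so these r describe the 11 libraries and carry no test. Zic4 was most like Fgfr3 (r = 0.992), a fibroblast growth factor receptor, Dll1 (r = 0.985), a Notch ligand of committing neurons, and Mme (r = 0.983), a membrane metalloendopeptidase. Dll1 averaged 38.1 ± 3.40 CPM in affected females, 61.5 ± 17.1 CPM among control males (log2 fold change -0.69) and 58.2 ± 9.13 CPM among control females (log2 fold change -0.61). It was picked because it followed Zic4 over these same libraries. Its lower level in affected females therefore comes with that choice and is no separate result. Zic1 was most like Habp4 (r = 0.962), Adamts15 (r = 0.957) and Cemip2 (r = 0.946). For Zic2 the highest values were lower, with Mylk (r = 0.857), Zfp142 (r = 0.856) and Ythdc2 (r = 0.844). Zic5 was most like Papolg (r = 0.919), Sertad3 (r = 0.914) and Creld1 (r = 0.890). Pax3 was most like Atg2b (r = 0.927), Zc3h3 (r = 0.926) and Gas2l3 (r = 0.917), and Pax7 like Smad1 (r = 0.943), which carries BMP signals to the nucleus, E2f7 (r = 0.892) and Zhx2 (r = 0.887). Among the 6 themselves, Zic1 with Zic4 had the highest r, 0.90, which was below the r of each of them with its 3 most alike genes.

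Other dorsal neural tube genes were lower or not called. The list holds 17 roof plate and dorsal progenitor genes, of which Gdf7 was under the filter. Of the 16 tested, 4 were lower and none higher in affected females against control females, with a median log2 fold change of -0.24, and 4 were lower and none higher against control males, with a median of -0.34. Over all tested genes 15.0% were lower and 28.0% called in either direction against control females, and 10.7% and 20.2% against control males. The count of 4 of 16 was close to the share called in either direction. All 4 were lower, which is above the share called lower, but the count depended on single libraries, as given below. At an unadjusted p under 0.05, 5 and 9 genes of the list were lower, and none higher. DESeq2 called 5 and 4 lower and none higher, and limma voom called 9 and 8 lower, with 1 and 0 higher. Bmp6, a BMP ligand, averaged 1.71 ± 0.364 CPM in affected females, 3.71 ± 1.02 CPM among control males (log2 fold change -1.11, SE 0.24, adjusted p = 0.0118) and 3.90 ± 0.0862 CPM among control females (log2 fold change -1.18, SE 0.26, adjusted p = 0.0071). The R-spondins Rspo1 and Rspo3, which strengthen Wnt signalling, were also lower in both comparisons. Rspo3 averaged 10.3 ± 2.50 CPM in affected females, 19.0 ± 4.43 CPM among control males (log2 fold change -0.88, adjusted p = 0.0121) and 17.4 ± 3.95 CPM among control females (log2 fold change -0.77, adjusted p = 0.018). Rspo1 had log2 fold changes of -0.68 (adjusted p = 0.0155) against control males and -0.63 (adjusted p = 0.0181) against control females. Bmp4 was lower against control females (log2 fold change -0.64, adjusted p = 0.0439) and had -0.52 with an adjusted p of 0.083 against control males. Atoh1, the bHLH factor of rhombic lip progenitors and a gene that Zic1 is known to repress in the chick neural tube, was lower against control males (0.559 ± 0.292 CPM in affected females, 1.89 ± 0.914 CPM among control males, log2 fold change -1.71, SE 0.48, adjusted p = 0.0245) and had -1.43 with an adjusted p of 0.0548 against control females. The level of Atoh1 was well under that of Zic5, so few counts stand behind its values. Lmx1a, the roof plate factor, had log2 fold changes of 0.05 against control males and 0.11 against control females. Wnt1, the Wnt ligand of the dorsal midline, had 0.08 against control males and 0.28 against control females, and neither gene was called. Leaving out 1 library gave 1 to 7 lower genes against control females, with 1 without affected female 3, control female 2 or control female 3 and 7 without control female 1. Against control males it gave 0 to 7, with 0 without affected female 3 and 7 without control female 1.

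**Figure D4:**
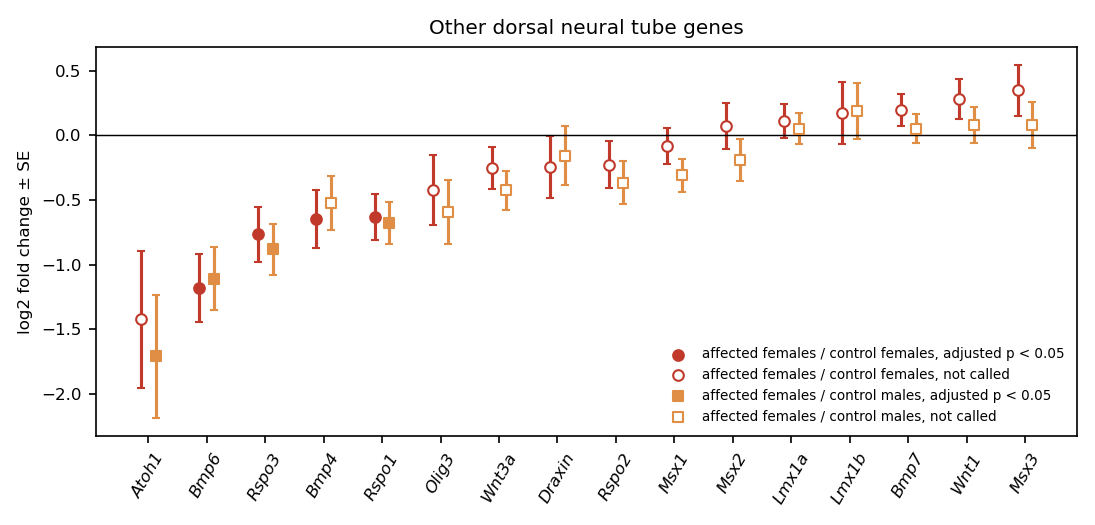
Log2 fold changes ± SE (vertical axis) from edgeR for 16 other dorsal neural tube genes, with affected females over control females (red circles) and affected females over control males (orange squares); filled symbols have an adjusted p under 0.05. Bmp6, Rspo3 and Rspo1 are filled in both comparisons, and Lmx1a, Lmx1b, Bmp7, Wnt1 and Msx3 lie at or above 0.05 in both.

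Ventral and intermediate genes are given for comparison. Among all tested genes, 13.0% were called higher and 15.0% lower against control females. Against control males these shares were 9.51% and 10.7%. Of 15 ventral genes, 6 were lower and none higher against control females (median log2 fold change -0.41), and 4 were lower and none higher against control males (median -0.18). By an unadjusted p under 0.05 these were 7 and 6 lower, and none higher. DESeq2 called 6 and 4 lower, and limma voom 7 and 6, with none higher. Leaving out 1 library gave 3 to 7 lower against control females, with 3 without control female 2 or control female 3. Against control males it gave 1 to 6, with 1 without affected female 3 or control male 1, and 2 without control male 2. Gli1, the readout of Hedgehog signalling, averaged 26.7 ± 2.76 CPM in affected females, 48.6 ± 9.97 CPM among control males (log2 fold change -0.86, adjusted p = 0.005) and 49.6 ± 3.34 CPM among control females (log2 fold change -0.89, adjusted p = 0.00248). Of 7 intermediate genes tested, 1 was higher and 1 lower against control females, close to the 28.0% of all tested genes called there. None of the 7 was called against control males. None passed against control males by DESeq2, by limma voom or at an unadjusted p under 0.05 in edgeR either. With 1 library left out, 0 to 1 were higher and 0 to 2 lower against control females, and neither direction had a call without affected female 2, 3 or 4 or control female 2. The higher call was also lost without affected female 1, control male 3, control female 1 or control female 3, and 2 were lower without control male 4. Against control males 1 was lower without control female 1.

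Genes of the whole Pax family, Pax3 and Pax7 included, were higher or not called. Of the 9 genes of the family, Pax4 was at 0 in every library. Of the 8 tested, 2 were higher and none lower against control females, with a median log2 fold change of 0.44, and 3 were higher and none lower against control males, with a median of 0.48. Over all tested genes 13.0% were higher and 28.0% called in either direction against control females, and 9.51% and 20.2% against control males, so a count of 2 or 3 of 8 says little about the family. By an unadjusted p under 0.05 these were 3 and 4 higher and none lower, DESeq2 called 2 and 3 higher, and limma voom 5 and 5, with none lower. The limma voom counts include Pax7 against control females and Pax3 against control males. Pax8, a factor of the otic placode and the midbrain-hindbrain boundary, averaged 16.4 ± 2.31 CPM in affected females, 9.91 ± 2.41 CPM among control males (log2 fold change 0.72, adjusted p = 0.019) and 10.6 ± 2.96 CPM among control females (log2 fold change 0.64, adjusted p = 0.0301). Pax1, a gene of sclerotome and pharyngeal pouches, averaged 1.32 ± 0.537 CPM in affected females, 0.427 ± 0.244 CPM among control males (log2 fold change 1.58, adjusted p = 0.0243) and 0.330 ± 0.150 CPM among control females (log2 fold change 2.01, adjusted p = 0.0144). These levels are near the floor, and Pax1 passed the filter on low counts only through affected females. Its calls, counted among the 2 and 3 higher genes, are therefore no independent result. Without affected female 1, 2 or 3, only 7 Pax genes were tested. Pax2 was higher against control males (5.37 ± 1.01 CPM in affected females, 3.26 ± 0.217 CPM among control males, log2 fold change 0.72, adjusted p = 0.0176) and had 0.51 with an adjusted p of 0.0594 against control females. No Pax gene was called against control females without affected female 3, control female 2 or control female 3, and 1 was without affected female 2 or affected female 4. Against control males none was called without affected female 3, and 1 was without control male 1 or control male 2.

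Genes known as targets or partners of Zic factors were called in both directions. By edgeR, genes downstream of Pax3 or Pax7 were called only higher against control females and in both directions against control males. Of 11 Zic partners and targets, 3 were higher and 1 lower against control females, and 3 were higher and 2 lower against control males. DESeq2 called 4 higher and 2 lower against control females, and 3 higher and 2 lower against control males. Limma voom called 4 higher and 2 lower in each. Gli3, Gli2 and Ephb1, given below, all had positive log2 fold changes, and the lower genes are not named. Over all tested genes 13.0% were higher and 15.0% lower against control females, and 9.51% higher and 10.7% lower against control males. Gli3, the Gli factor that acts mainly as a repressor and binds Zic proteins, averaged 321 ± 37.3 CPM in affected females, 213 ± 36.8 CPM among control males (log2 fold change 0.59, adjusted p = 0.00956) and 205 ± 3.45 CPM among control females (log2 fold change 0.65, adjusted p = 0.0041). Gli2 was also higher, with log2 fold changes of 0.36 (adjusted p = 0.0446) against control males and 0.50 (adjusted p = 0.0139) against control females. The number of higher genes in this list fell to 1 against control males without affected female 3, affected female 4, control male 1 or control male 2. The number of lower genes was 2 against control females without affected female 4, control male 2, control male 4 or control female 1, and 1 against control males without affected female 1, 2 or 3 or control male 1 or 2. Ephb1, an Eph receptor whose expression Zic2 drives in mouse retinal axons, was higher against control males (log2 fold change 0.46, adjusted p = 0.0213) and had 0.28 with an adjusted p of 0.119 against control females. Of 14 genes downstream of Pax3 or Pax7, 10 passed the filter, and 4 were higher and none lower against control females, while 2 were higher and 1 lower against control males. Neurog2 was the 1 gene lower against control females at an unadjusted p under 0.05 and by limma voom; DESeq2 called none lower there. Ret, a receptor of neural crest and enteric neurons, averaged 11.9 ± 2.05 CPM in affected females, 5.44 ± 0.642 CPM among control males (log2 fold change 1.13, adjusted p = 0.00709) and 4.61 ± 1.69 CPM among control females (log2 fold change 1.39, adjusted p = 0.00248). Sox10, the neural crest factor, averaged 26.4 ± 4.81 CPM in affected females, 16.7 ± 3.03 CPM among control males (log2 fold change 0.66, adjusted p = 0.018) and 12.3 ± 3.01 CPM among control females (log2 fold change 1.10, adjusted p = 0.00285). Neurog2, a proneural factor, was lower against control males (log2 fold change -0.75, adjusted p = 0.0368), and no gene of the list was lower there without any 1 of the 4 affected females, control male 1 or control male 4. With 1 library left out, 2 to 5 of the Pax3 and Pax7 list were higher against control females, with 2 without affected female 1, affected female 4, control female 2 or control female 3. Against control males 1 to 3 were higher, with 1 without affected female 3 or control male 2.

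Genes of neural progenitors and brain regions were higher in affected females or not called. Of the 14 tested, 7 were higher and none lower against control females (median log2 fold change 0.36), and 3 were higher and none lower against control males (median 0.09). Among all tested genes, 13.0% were higher against control females and 9.51% against control males. At an unadjusted p under 0.05, 8 and 6 of the 14 were higher and none lower; DESeq2 called 7 and 3 higher and none lower, and limma voom 7 and 5 higher, with 1 and 0 lower. Egr2, a factor of hindbrain segments, averaged 8.70 ± 1.99 CPM in affected females, 4.59 ± 2.00 CPM among control males (log2 fold change 0.92, adjusted p = 0.0308) and 2.54 ± 0.783 CPM among control females (log2 fold change 1.78, adjusted p = 0.0035). Otx2, the forebrain and midbrain factor, had log2 fold changes of -0.02 against control males and 0.01 against control females and was not called. With 1 library left out, 3 to 7 were higher against control females, with 3 without control female 2 and 4 without affected female 3 or control female 3. Against control males 1 to 5 were higher, with 1 without affected female 3, affected female 4, control male 1 or control male 2, and 5 without control male 4.

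Markers of other tissues that use these factors are given as well. Among all tested genes, 13.0% were called higher and 15.0% lower against control females. Against control males these shares were 9.51% and 10.7%. Neural crest genes summed to 466 to 547 CPM in affected females, 402 to 457 CPM among control males and 374 to 389 CPM among control females. Of 12 tested, 8 were higher and 1 lower against control females, and 2 were higher and 2 lower against control males. At an unadjusted p under 0.05, 8 and 7 were higher and 2 and 2 lower. DESeq2 called 8 and 4 higher and limma voom 7 and 6, each with 2 and 2 lower. With 1 library left out, 2 to 8 were higher against control females (2 without control female 2 or control female 3) and 1 to 7 against control males (7 without control male 4). The lower genes were then 1 to 2 against control females and 0 to 2 against control males. Surface ectoderm genes summed to 332 to 380 CPM in affected females, 197 to 270 CPM among control males and 176 to 308 CPM among control females, and 9 of 12 were higher against control females and 8 of 12 against control males. These counts were 4 to 10 (4 without control female 2 or control female 3) and 1 to 10 (1 without affected female 3) with 1 library left out. DESeq2 called 9 and 10 of these genes higher and limma voom 10 and 10, with none lower by either. Somite and head mesenchyme genes, a tissue where Pax3, Pax7 and Zic1 are also made, summed to 234 to 315 CPM in affected females, 259 to 291 CPM among control males and 234 to 276 CPM among control females. Of 12 tested, 3 were higher and 1 lower against control females, and 2 were higher and none lower against control males. These counts were close to the 28.0% and 20.2% of all tested genes called in either direction. The higher genes include Pax1, which passed the filter only through affected females. DESeq2 called 3 and 1 higher, with 1 and 0 lower, and limma voom 7 and 6 higher, with 2 and 1 lower. At an unadjusted p under 0.05, 5 and 5 were higher and 1 and 2 lower. With 1 library left out, 1 to 5 were higher against control females (1 without affected female 1, affected female 3, control female 2 or control female 3, and 5 without control female 1), and the lower call was lost without control female 3. Against control males 0 to 3 were higher, with 0 without affected female 1, affected female 3 or control male 2, 1 without affected female 2 or control male 1, and 1 was lower without control male 4 or control female 1. The defining somite genes Tcf15, Tbx6, Myf5 and Myf6 were all under the filter. The part of these tissues in the Zic and Pax values was not tested.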

How the data were processed

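The authors deposited raw whole-number counts per Entrez gene for each embryo, with gene lengths; featureCounts and mm10 are named in the submitters' processing notes. Aligner, versions, strand setting and annotation: not given in the sources used here. Per the labels, polyadenylated RNA went into TruSeq libraries for an Illumina sequencer. Symbols came from a RefSeq table of GRCm38.p6 (25275 identifiers matched, 1904 did not).

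Counts were filtered with filterByExpr, scaled by TMM and fitted in edgeR 4.0.16 (R 4.3.3) with the group as the only factor, all 11 libraries in 1 quasi-likelihood fit, and Benjamini-Hochberg adjustment over 14542 genes (threshold 0.05). The biological coefficient of variation was 11.9%. The SE is the fold change over the square root of F. RPKM used the deposited lengths. The labels name no batch or litter. Between libraries of a group, chi-square over degrees of freedom was 2.73 to 31.6, above sampling noise, so none was counted as a duplicate. The fit was tested on simulated data.

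The members and lists were chosen with earlier results of these data known. Named genes were the 6 members, label checks, up to 4 genes per list and comparison with the smallest adjusted p, and the 3 most alike genes per member; Lmx1a, Wnt1 and other listed genes outside this rule were chosen after their values were seen. Alternatives were RLE scaling, other filters and prior counts, DESeq2 1.42.0, limma 3.58.1 (voom with sample weights), the replicate block, only 2 groups, and leaving out libraries. 1 further item is not reported here.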

Additional observations from a re-analysis of the deposited data

Results flagged for a closer look

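Control male 2 stood apart from the other control males in Zic1. Its level was 118.9 CPM, against 80.1 to 84.0 CPM in the other 3, and the gap to the nearest embryo was 0.9 of the range of the group, above Dixon's 95% limit for 4 embryos. In all, 12 groups of 4 were examined, and chance marks about 5% of such groups.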

How the results depend on the processing

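Zic4 stayed lower in affected females at an adjusted p under 0.05 in 20 of 20 alternatives against control females (log2 fold change -1.66 to -1.22) and in 19 of 20 against control males (-1.56 to -1.02), the exception being the fit without affected female 3. Zic1 was called in 3 of 20 and 8 of 20. Limma voom with sample weights called 7639 genes for affected against control females, 6397 for affected females against control males and 1569 for control males against control females, of which 4, 4 and 1 were among the 6 genes. The same-numbered embryos did not deviate together (correlations -0.136 to 0.178), and a replicate block called 2875, 3418 and 21 genes, with 2 of the 6 against control males. Also 2 of the 6 were called there by DESeq2, without a count filter and with only the 2 groups. DESeq2 called 43 genes between the control groups. Without control female 1 and control male 4 together, 5711 genes were called against control females and 6014 against control males, with 2 of the 6 against control females and 3 against control males. Leaving out 1 library gave 1663 to 4957, 361 to 5140 and 18 to 35 called genes in those 3 comparisons, the lowest without control female 3, without affected female 3 and without control male 1 or 3 in turn, and 1 to 2, 0 to 3 and 0 to 0 of the 6.

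The within-group r of Zic1 and Zic4 was 0.86 to 0.95 with 1 library left out and 0.63 without the 2 farthest embryos. That of Zic2 and Zic5 was -0.26 to 0.63, and -0.20 without the 2 farthest, and that of Pax3 and Pax7 was -0.04 to 0.41. Of the log2 fold changes of single genes under the alternatives, 302 kept direction and side of the threshold, 18 newly passed it, 1 no longer passed and 39 changed sign, none of them past the threshold before. Against control females, Zic2 was 0.00 without a count filter, 0.01 with voom and 0.03 without control female 1 and control male 4, and leaving out 1 library gave -0.06 to 0.03 for Zic2 and -0.04 to 0.21 for Pax3. Against control males, Zic2 was 0.01 with RLE scaling, DESeq2 and voom, and 0.00 without a filter and without control female 1 and control male 4; 1 library left out gave -0.05 to 0.04 for Zic2 and -0.04 to 0.26 for Pax7. Between control males and control females, voom gave -0.17 for Zic1 and 0.01 for Zic2, and the fit without control female 1 and control male 4 gave -0.02 for Zic1, 0.03 for Zic2 and 0.03 for Pax3. Zic2 was 0.00 there without a filter. Zic4 was 0.00 without a filter, with DESeq2 and with the replicate block, and 0.01 with only the 2 groups. Leaving out 1 library gave -0.06 to 0.24 for Zic1, -0.05 to 0.03 for Zic2, -0.38 to 0.18 for Zic4, -0.06 to 0.11 for Zic5 and -0.20 to 0.05 for Pax3. The cause of these changes was not tested. These ranges show how the values change with the processing and with single libraries left out. They are not confidence intervals and come from these embryos only. Zic5 with 29 to 68 counts per library is the gene that depth limits most.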
